A study of Mus musculus with 8 samples.

Results

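The transcripts of 44 genes of the autophagy machinery and its cargo receptors were followed in 8 mouse RNA-seq libraries. They are the rows of the deposited table, which covers 22063 genes, whose symbol is on a list of autophagy genes with known roles, and all 44 were found. The set was proposed with the tranilast contrast of these same libraries in view, so that it counts as selected on the values given below. All counts, fold changes and p-values of that contrast are therefore descriptions of these genes, and no statement about autophagy as a set rests on them.

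Of the 8 libraries, 4 carry the label of control and 4 add tranilast to it, an anti-allergic drug. The labels call every sample wild-type liver and give no batch, diet, age or dose. The series design describes both groups as coming from mice on a high-fat and high-cholesterol (HFHC) diet. The methods name male C57BL/6J mice that received tranilast or its carboxymethylcellulose vehicle by mouth. They do not name the dose that the sequenced samples had received. Since no label says that the libraries of a group came from separate animals, the p-values measure the spread between libraries, which may be technical. The libraries of a group differed from each other by more than counting error, with a common coefficient of variation beyond it of 5.09%. Library totals lay between 14585153 and 15618787 counts in the control group and between 12053036 and 14679386 in the tranilast group.

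The label of liver was checked against marker genes. The 9 hepatocyte markers together held at most 0.000191% of the counts of any library. Albumin (Alb) reached at most 2 counts. Of 10 macrophage markers, 9 had at least 462 counts in every library and Mertk had at most 1, and the list held between 0.949% and 1.01% of the counts in the control group and between 0.928% and 0.987% in the tranilast group. This sum hides single genes. Fcgr1 was called lower with tranilast (log2 fold change of -1.42), as were Itgam, Ptprc, Csf1r, Lyz2 and Cd14 (from -0.28 to -0.068). Adgre1 and Cd68 were called higher (0.21 and 0.16), and Tyrobp was not called. The Kupffer cell markers Timd4, Clec4f and Vsig4 were at 0 counts throughout. The lists for endothelial, stellate, biliary and lymphoid cells had at most 15 counts for any gene. The markers thus did not bear out the label of liver tissue. The values below are those of RNA with abundant macrophage transcripts, in which hepatocyte transcripts were nearly absent, and the origin of the cells was not tested. In such bulk RNA, fewer cells of a type and less RNA per cell cannot be told apart. In a list of 8 cell cycle genes, chosen with earlier results of these data known, 8 of 8 were called lower. Among all tested genes 28.8% were called lower by the same test, which is given below. The list held between 0.339% and 0.358% of the counts in the control group and between 0.180% and 0.187% in the tranilast group. Its part in the results was not tested.

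Autophagy is the route by which a cell encloses part of its own cytoplasm in a membrane and delivers it to the lysosome. The ULK1 kinase complex starts the process, the class III phosphatidylinositol 3-kinase complex with Beclin 1 marks the site, and ATG9 vesicles with the lipid transfer protein ATG2 supply membrane to the growing cup, the phagophore. A conjugation system built like that of ubiquitin then couples the small ATG8 proteins (LC3 and GABARAP) to the membrane, and cargo receptors such as p62 bind both the ATG8 proteins and the material to be degraded. Macrophages depend on the route to clear damaged organelles, lipid droplets and ingested microbes. Transcript levels measure neither the flux through the pathway nor the amount of any of these proteins.

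With tranilast, the cargo receptor genes Sqstm1, Calcoco1 and Nbr1 were higher, as were the kinase gene Ulk1 and the fusion gene Tecpr1. The lipid transfer gene Wdr45 and the ATG8 gene Map1lc3b were higher too. These genes rose by 1.81-fold to 2.95-fold, whereas the mitophagy receptor gene Bnip3 was lower. Of the 44 genes, 43 passed the expression filter, and Optn did not. By the quasi-likelihood method of edgeR, with p-values adjusted (Benjamini-Hochberg) over the 10770 tested genes, 24 of the 43 had an adjusted p-value under 0.05 and were higher with tranilast, 4 were lower and 15 were not called. Among all tested genes 28.2% were called higher and 28.8% lower. The counts of each step below stand beside these same shares. The median log2 fold change was 0.23 over the 43 members and 0.0085 over all tested genes. The called members with a log2 fold change beyond 0.5 in size numbered 14, beside 15.2% of all tested genes. In 24 members every tranilast library lay above every control library, and in 2 members every one lay below, while the groups did not overlap in 49.8% of all tested genes. For such a gene an exact permutation test on log2 CPM, two-sided, gives p = 0.0286, the smallest that 4 libraries against 4 allow.

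These counts depend on how the libraries are scaled to each other. The factors of the TMM method, which balances libraries whose composition differs, lay between 0.956 and 0.965 in the control group and between 1.037 and 1.045 in the tranilast group. With library size alone, the median log2 fold change of all tested genes was 0.13 and that of the members 0.34. In that setting 33 members were called higher and 2 lower, beside 42.8% and 17.6% of all tested genes. The differences that did not depend on scaling were those within a library, and ratios and shares between members are given for that reason.

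**Figure D1:**
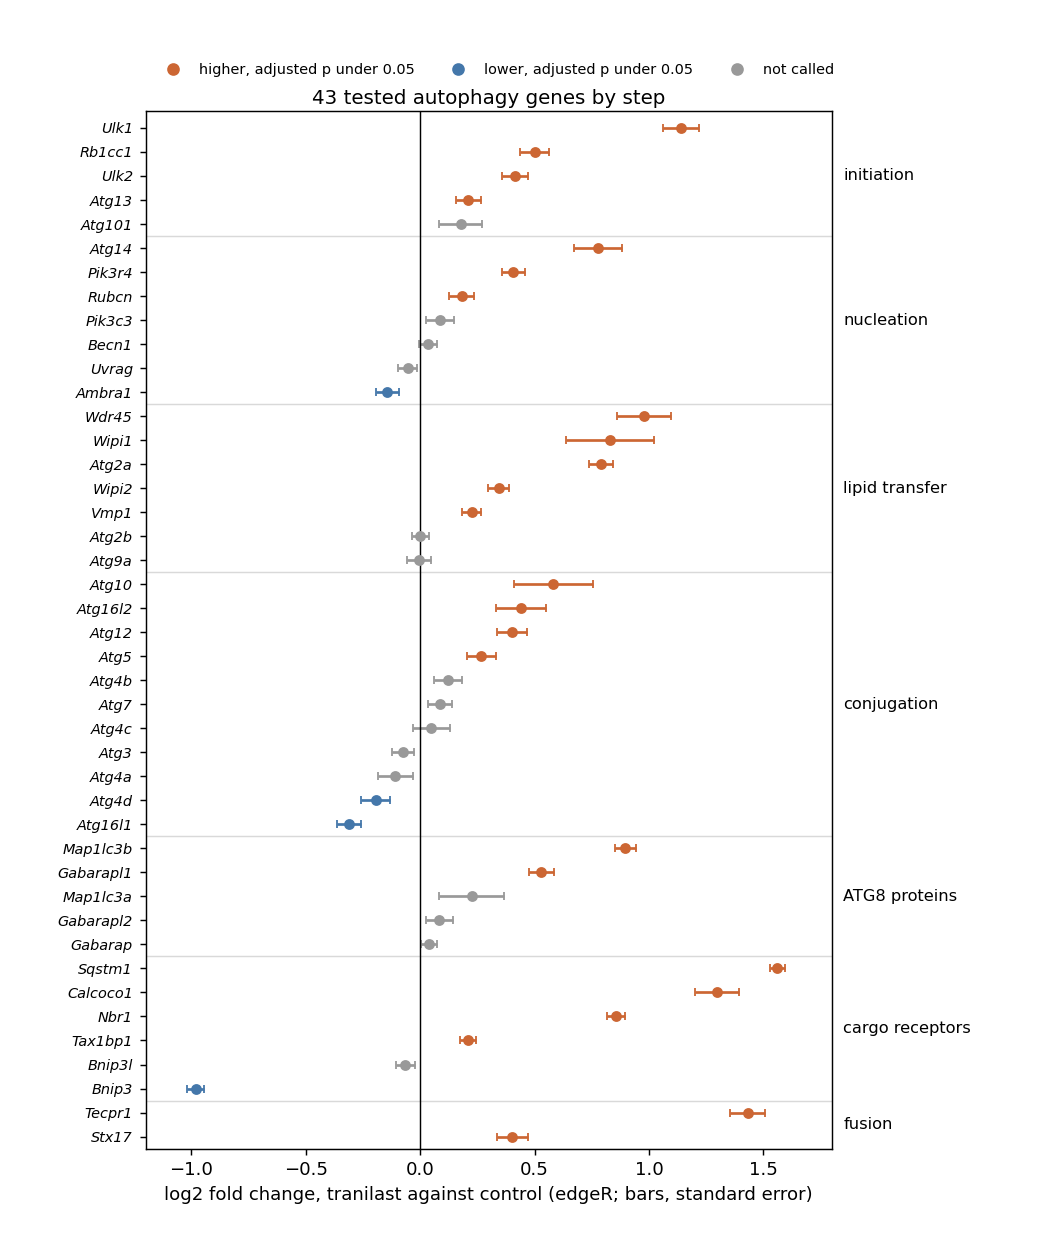
Each point is the log2 fold change (tranilast against control, edgeR) of 1 of 43 autophagy genes, and each bar its standard error, grouped by step of the pathway. Orange points were called higher, blue points lower and grey points not called at an adjusted p-value of 0.05, with Sqstm1 at 1.56 and Bnip3 at -0.98 as the extremes.

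The first step is carried out by the ULK complex, and 4 of its 5 genes were higher. Ulk1 encodes the kinase that AMPK and mTORC1 phosphorylate with opposite effects (ENSMUSG00000029512, chromosome 5 of GRCm38, 110784488 to 110810097). In CPM, the count scaled to a common library size with TMM factors, it had 26.2, 23.9, 20.5 and 25.8 in control replicates 1 to 4 and 51.9, 49.9, 49.99 and 60.3 in tranilast replicates 1 to 4. Each tranilast library lay above every control library. The log2 fold change was 1.14 (standard error, SE, 0.078, adjusted p = 7.77e-10 in the same edgeR test). Ulk2, its paralog, had a log2 fold change of 0.42 (SE 0.056), so that the order of the paralogs by level per transcript length changed. In FPKM, which scales for transcript length and depth, the ratio of Ulk1 to Ulk2 was 0.681 ± 0.0570 (SD, n = 4) in the control group, with a range of 0.610 to 0.747, and 1.10 ± 0.0405 (SD, n = 4) in the tranilast group, with a range of 1.05 to 1.14.

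Rb1cc1, which encodes the scaffold FIP200, had 38.1, 36.0, 38.5 and 38.8 CPM in control replicates 1 to 4 and 51.9, 51.3, 49.8 and 61.0 CPM in the tranilast replicates. Its log2 fold change was 0.50 (SE 0.063, adjusted p = 2.08e-06), and the groups did not overlap. Atg13, the regulatory subunit, rose by 0.21 on the log2 scale. Atg101, which stabilises ATG13, had a log2 fold change of 0.18 (SE 0.094, adjusted p = 0.119) and overlapping groups, and it was called under upper-quartile factors, library size alone and FPKM, and without control replicate 4 (adjusted p = 0.0377).

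The proximal promoters of Ulk1, Sqstm1 and Bnip3 are shown because these genes carry the first step and the largest rise and fall. Each run holds the 250 bases before the RefSeq start, on the minus strand of GRCm38.p6, read 5′ to 3′, at chr5:110810082-110810331, chr11:50210821-50211070 and chr7:138909507-138909756. Capitals mark GGGCGG, the GC box, on either strand, and CACGTG, the E-box core that the TFEB family of lysosomal factors and other basic helix-loop-helix proteins bind.
Ulk1: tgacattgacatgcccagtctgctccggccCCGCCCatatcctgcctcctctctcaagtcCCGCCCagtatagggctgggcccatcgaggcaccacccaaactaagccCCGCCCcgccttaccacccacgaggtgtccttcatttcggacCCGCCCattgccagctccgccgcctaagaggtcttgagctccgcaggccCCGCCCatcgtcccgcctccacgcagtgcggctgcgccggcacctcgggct
Sqstm1: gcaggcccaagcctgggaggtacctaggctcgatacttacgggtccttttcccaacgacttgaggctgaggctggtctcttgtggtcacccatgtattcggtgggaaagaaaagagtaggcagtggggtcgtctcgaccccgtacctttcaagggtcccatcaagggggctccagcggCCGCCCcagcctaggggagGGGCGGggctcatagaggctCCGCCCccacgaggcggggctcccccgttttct
Bnip3: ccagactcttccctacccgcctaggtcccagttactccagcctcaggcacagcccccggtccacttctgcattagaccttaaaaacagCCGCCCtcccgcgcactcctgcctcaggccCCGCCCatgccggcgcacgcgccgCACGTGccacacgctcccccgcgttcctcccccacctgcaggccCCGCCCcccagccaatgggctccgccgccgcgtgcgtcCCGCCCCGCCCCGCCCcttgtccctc
The GC box occurred 5 times in the run of Ulk1, 3 times in that of Sqstm1 and 6 times in that of Bnip3, with overlapping matches counted, and the E-box core occurred once, in that of Bnip3. Their GC content was 67.2%, 63.2% and 72.4%.

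At nucleation, 3 of 7 genes were higher and 1 was lower, with log2 fold changes between -0.14 and 0.78. Atg14 encodes the subunit that directs the kinase complex to the site of phagophore formation. It had 10.1, 8.13, 10.3 and 10.5 CPM in control replicates 1 to 4 and 18.1, 16.7, 17.0 and 15.1 CPM in the tranilast replicates. The groups did not overlap, and the log2 fold change was 0.78 (SE 0.10, adjusted p = 4.62e-06). Pik3r4, the regulatory subunit VPS15, had a log2 fold change of 0.41 (SE 0.052), and Rubcn, which encodes the inhibitor Rubicon, had one of 0.18 (SE 0.056). Rubcn shares exon sequence on the opposite strand with Fyttd1, which had more counts (mean of 1366 against 568) and a log2 fold change of -0.25, and whether the authors counted by strand is not given in the sources used here.

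Becn1, Pik3c3 and Uvrag did not pass the test. Becn1, which encodes Beclin 1, had a log2 fold change of 0.033 (SE 0.040), Pik3c3, the catalytic subunit VPS34, one of 0.085 (SE 0.061) and Uvrag, the partner of Beclin 1 that replaces ATG14, one of -0.055 (SE 0.041). With library size alone Becn1 was called at 0.15 (adjusted p = 0.00382) and Pik3c3 at 0.20 (adjusted p = 0.00878), and both were also called higher under upper-quartile factors and on log2 FPKM. Ambra1, which links Beclin 1 to ubiquitin ligases, was called lower with a log2 fold change of -0.14 (SE 0.052, adjusted p = 0.0247), but its groups overlapped. Its adjusted p-value was 0.112 without control replicate 3, 0.0629 without tranilast replicate 1 and 0.0663 without tranilast replicate 3 as without tranilast replicate 4.

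Among the 7 genes of lipid transfer and membrane supply, 5 were higher and none was lower. WIPI proteins bind the phosphatidylinositol 3-phosphate that the kinase complex makes and recruit ATG2. Wdr45, which encodes WIPI4, had 6.69, 7.92, 6.35 and 5.65 CPM in control replicates 1 to 4 and 12.9, 13.6, 13.98 and 12.1 CPM in the tranilast replicates, a log2 fold change of 0.98 (SE 0.12, adjusted p = 1.51e-06). Wipi1 was the least abundant member that passed the filter, with 2.92, 3.47, 2.34 and 2.79 CPM in the control replicates and 5.18, 3.84, 6.31 and 5.22 CPM in the tranilast replicates, and its log2 fold change was 0.83 (SE 0.19, adjusted p = 0.00128). In both genes the lowest tranilast library lay above the highest control library. Wipi2, which recruits ATG16L1 and was the most abundant WIPI gene among the members, had a log2 fold change of 0.34 (SE 0.046). Wdr45b, a WIPI gene outside the members, was lower at -0.27 (SE 0.052, adjusted p = 0.000207 in the same edgeR test), and its groups did not overlap. Its mean FPKM was 24.3 in the control group and 23.1 in the tranilast group, against 16.1 and 22.3 for Wipi2.

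The paralogs of ATG2, which form a bridge for lipids between the endoplasmic reticulum and the phagophore, differed from each other. Atg2a had 40.3, 38.3, 35.0 and 39.9 CPM in control replicates 1 to 4 and 66.7, 67.8, 62.8 and 67.6 CPM in the tranilast replicates, and a log2 fold change of 0.79 (SE 0.053, adjusted p = 6.16e-10). Atg2b, the more abundant paralog, had a log2 fold change of 0.0011 (SE 0.037). The FPKM ratio of Atg2a to Atg2b was 0.386 ± 0.0375 (SD, n = 4) in the control group and 0.662 ± 0.0196 (SD, n = 4) in the tranilast group, with ranges of 0.348 to 0.434 and 0.635 to 0.678. Atg9a, the lipid scramblase of the seed vesicles, had a log2 fold change of -0.0050 (SE 0.052), and the sign for both Atg9a and Atg2b changed with the scaling or with single libraries left out. Vmp1, a scramblase of the endoplasmic reticulum, rose by 0.23 on the log2 scale (SE 0.042).

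Of the 11 conjugation genes, 4 were higher, 2 were lower and 5 were not called, with a median log2 fold change of 0.088. The shares over all tested genes were 28.2% higher and 28.8% lower. Atg10, which encodes the E2-like enzyme for ATG12, had 2.70, 3.68, 4.28 and 4.54 CPM in control replicates 1 to 4 and 5.61, 6.30, 5.27 and 5.61 CPM in the tranilast replicates, a log2 fold change of 0.58 (SE 0.17, adjusted p = 0.00791) with groups that did not overlap. The ubiquitin-like protein genes Atg12 and its partner Atg5 had log2 fold changes of 0.40 (SE 0.066) and 0.27 (SE 0.064). The E1-like enzyme gene Atg7 had a value of 0.088 (SE 0.053) and the E2-like enzyme gene Atg3 one of -0.075 (SE 0.047), and neither passed the test. Atg7 was called higher under upper-quartile factors (0.16, adjusted p = 0.0178), with library size alone (0.20, adjusted p = 0.0029) and on log2(FPKM + 1) (0.31, adjusted p = 0.0068).

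Atg16l1, which encodes the protein that places the conjugation machinery on the membrane, was lower, with a log2 fold change of -0.31 (SE 0.053, adjusted p = 6.62e-05) and groups that did not overlap. Its paralog Atg16l2 had a log2 fold change of 0.44 (SE 0.11, adjusted p = 0.00218). Per transcript length, the ratio of Atg16l1 to Atg16l2 was 2.62 ± 0.313 (SD, n = 4) in the control group and 1.58 ± 0.187 (SD, n = 4) in the tranilast group, and the ranges of 2.21 to 2.96 and 1.32 to 1.75 did not overlap. Atg16l2 shares exon sequence with Fchsd2 on the opposite strand, a gene with a log2 fold change of -0.16 and more counts.

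The ATG4 proteases prime the ATG8 proteins and remove them from membranes. Atg4a, Atg4b and Atg4c were not called, with log2 fold changes of -0.11 (SE 0.077), 0.12 (SE 0.061) and 0.049 (SE 0.079). Atg4d was called lower at -0.19 (SE 0.063, adjusted p = 0.0133), with groups that overlapped, and without tranilast replicate 1 its adjusted p-value was 0.0513. It overlaps Kri1 on the opposite strand, which was lower by more (log2 fold change of -0.36) and had a mean of 1041 counts against 489 for Atg4d. Atg4b was called higher under upper-quartile factors (0.19, adjusted p = 0.0155), with library size alone (0.24, adjusted p = 0.00262), on log2(FPKM + 1) (0.40, adjusted p = 6.66e-04) and without control replicate 2 (0.16, adjusted p = 0.0359).

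Of the 5 ATG8 genes, which encode the proteins coupled to the autophagosome membrane, Map1lc3b and Gabarapl1 were higher. The share called higher over all tested genes was 28.2%. Map1lc3b encodes LC3B (ENSMUSG00000031812, chromosome 8, 121590361 to 121598760). Its CPM was 42.7, 46.2, 41.7 and 43.8 in control replicates 1 to 4 and 80.8, 81.0, 78.6 and 84.3 in tranilast replicates 1 to 4. The log2 fold change was 0.90 (SE 0.047, adjusted p = 1.81e-11). Zcchc14, which shares exon sequence with Map1lc3b on the opposite strand and had a mean of 1002 counts against 881, had a smaller log2 fold change of 0.35. Gabarapl1 had 37.1, 35.6, 36.9 and 34.8 CPM in the control replicates and 49.3, 53.3, 50.2 and 55.5 CPM in the tranilast replicates, and a log2 fold change of 0.53 (SE 0.054, adjusted p = 1.42e-07). In both genes the groups were apart.

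Gabarap was the most abundant ATG8 gene, and its CPM of 156, 162, 167.5 and 163 in the control replicates overlapped the values of 159.7, 175, 166 and 165 in the tranilast replicates (log2 fold change of 0.038, SE 0.037). Gabarapl2, which encodes GATE-16, had 44.7, 54.5, 49.0 and 48.4 CPM in the control replicates and 54.5, 52.6, 49.6 and 51.7 CPM in the tranilast replicates, and a log2 fold change of 0.084 (SE 0.058). Map1lc3a, which encodes LC3A, had 4.84, 7.16, 6.95 and 6.63 CPM in the control replicates and 8.24, 7.38, 6.79 and 7.504 CPM in the tranilast replicates, and a log2 fold change of 0.23 (SE 0.14). None of these 3 genes passed the test, but their calls depended on the scaling. With library size alone, Gabarap was called higher at 0.15 (adjusted p = 0.00144), Gabarapl2 at 0.20 (adjusted p = 0.00575) and Map1lc3a at 0.34 (adjusted p = 0.0436). All 3 were also called higher on log2 FPKM, and Gabarap and Gabarapl2 under upper-quartile factors. Without control replicate 2 the adjusted p-value of Gabarapl2 was 0.0445.

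The make-up of the ATG8 transcripts shifted within the libraries. Map1lc3b took 13.2% to 13.9% of their summed FPKM in control libraries, against 17.7% to 20.7% in tranilast libraries, while Gabarap took between 56.3% and 59.1% and then between 48.9% and 54.7%. For Gabarapl1 the ranges of 10.3% to 14.4% and 12.03% to 16.1% overlapped, unlike its CPM. Its FPKM was 28.4 in control replicate 1 and 20.4 in control replicate 4, where its CPM was 37.1 and 34.8. The length behind its FPKM may thus differ between libraries, which limits shares and ratios in FPKM and was not tested. The sum itself was 201 ± 4.43 FPKM (SD, n = 4) in the control group and 255 ± 4.41 FPKM (SD, n = 4) in the tranilast group. Unlike the shares, the sum depends on the scaling between libraries. On log2(FPKM + 1) the median log2 fold change of all tested genes was 0.10.

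**Figure D2:**
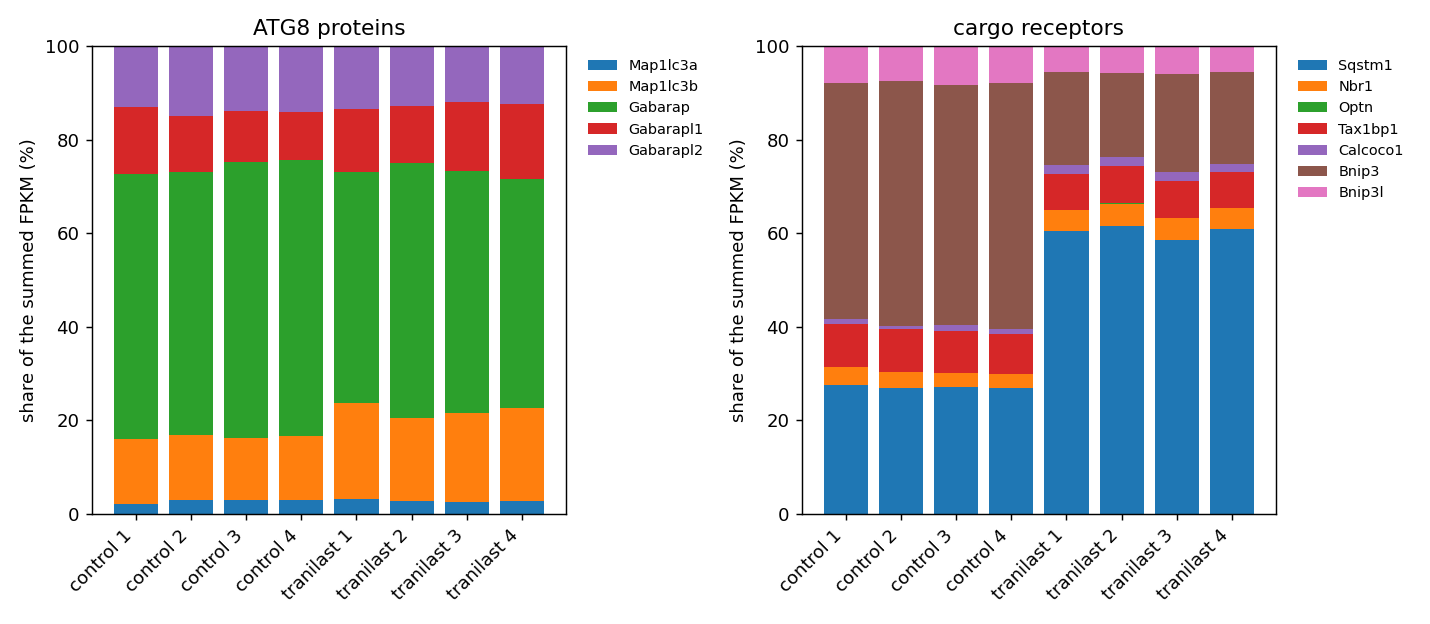
Stacked bars give the share (%) of the summed FPKM that each ATG8 gene (left) and each cargo receptor gene (right) took in each of the 8 libraries. Sqstm1 took 26.8% to 27.6% of the receptor sum in the control libraries and 58.5% to 61.6% in the tranilast libraries, and Bnip3 took a mean of 51.7% and then of 19.6%.

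The cargo receptors held both the largest rise and the largest fall among the members, with 4 of 6 tested genes higher and 1 lower. Sqstm1 encodes p62, the receptor for ubiquitin-tagged aggregates that also binds KEAP1, the inhibitor of the factor NRF2 (ENSMUSG00000015837, chromosome 11, 50199366 to 50210827). It had 252, 261, 264 and 267.5 CPM in control replicates 1 to 4 and 774, 799, 721 and 788 CPM in tranilast replicates 1 to 4. The lowest tranilast library thus held far more Sqstm1 than the highest control library, and the log2 fold change was 1.56 (SE 0.033, adjusted p = 9.94e-17), or 2.95-fold. Sqstm1 was the only member past the log2 fold change of 1.5 that the methods name for DEGs. Of the 10770 tested genes, 120 were called and past it in either direction.

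Calcoco1, a receptor related to NDP52, had 13.4, 10.98, 15.98 and 12.98 CPM in control replicates 1 to 4 and 36.1, 34.0, 30.4 and 30.7 CPM in the tranilast replicates, and a log2 fold change of 1.30 (SE 0.098, adjusted p = 2.77e-09). Nbr1, which like p62 carries a ubiquitin-binding domain and a motif for ATG8 proteins, had 69.6, 66.9, 63.8 and 64.9 CPM in the control replicates and 117, 124, 119.8 and 119.5 CPM in the tranilast replicates, and a log2 fold change of 0.86 (SE 0.041, adjusted p = 4.86e-12). Neither gene had overlapping groups. Tax1bp1, another receptor of this kind, had a smaller rise of 0.21 on the log2 scale (SE 0.034, adjusted p = 5.22e-05). Sqstm1 rose more than Nbr1 within the libraries, since its FPKM was 8.24 ± 0.525 times that of Nbr1 (SD, n = 4) in the control group and 13.1 ± 0.599 times (SD, n = 4) in the tranilast group.

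Bnip3 encodes a receptor on the outer mitochondrial membrane and is a known target of the hypoxia factor HIF-1 (ENSMUSG00000078566, chromosome 7, 138890836 to 138909519). Its CPM was 362.5, 401, 375 and 399 in control replicates 1 to 4 and 191, 184, 203 and 201.5 in tranilast replicates 1 to 4. Every tranilast library held less than every control library, and the log2 fold change was -0.98 (SE 0.039, adjusted p = 3.58e-13). Its paralog Bnip3l, which encodes NIX, had a log2 fold change of -0.064 (SE 0.041, adjusted p = 0.189) and overlapping groups. Optn, the gene of optineurin, had 0, 1, 1 and 0 counts in the control replicates and 3, 7, 0 and 2 counts in the tranilast replicates, so that no difference was detectable at this depth, where a count of 0 allows up to 3 counts.

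Both genes of the last step, fusion of the autophagosome with the lysosome, were higher. Tecpr1 encodes a tethering protein of lysosomes that binds the ATG12 and ATG5 conjugate (ENSMUSG00000066621, chromosome 5, 144194442 to 144223615). It had 15.2, 14.9, 13.8 and 14.4 CPM in control replicates 1 to 4 and 38.5, 43.7, 35.8 and 39.2 CPM in tranilast replicates 1 to 4, without overlap, and a log2 fold change of 1.43 (SE 0.075, adjusted p = 1.72e-11). Stx17, the SNARE of the autophagosome, had a log2 fold change of 0.40 (SE 0.067, adjusted p = 5.68e-05).

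**Figure D3:**
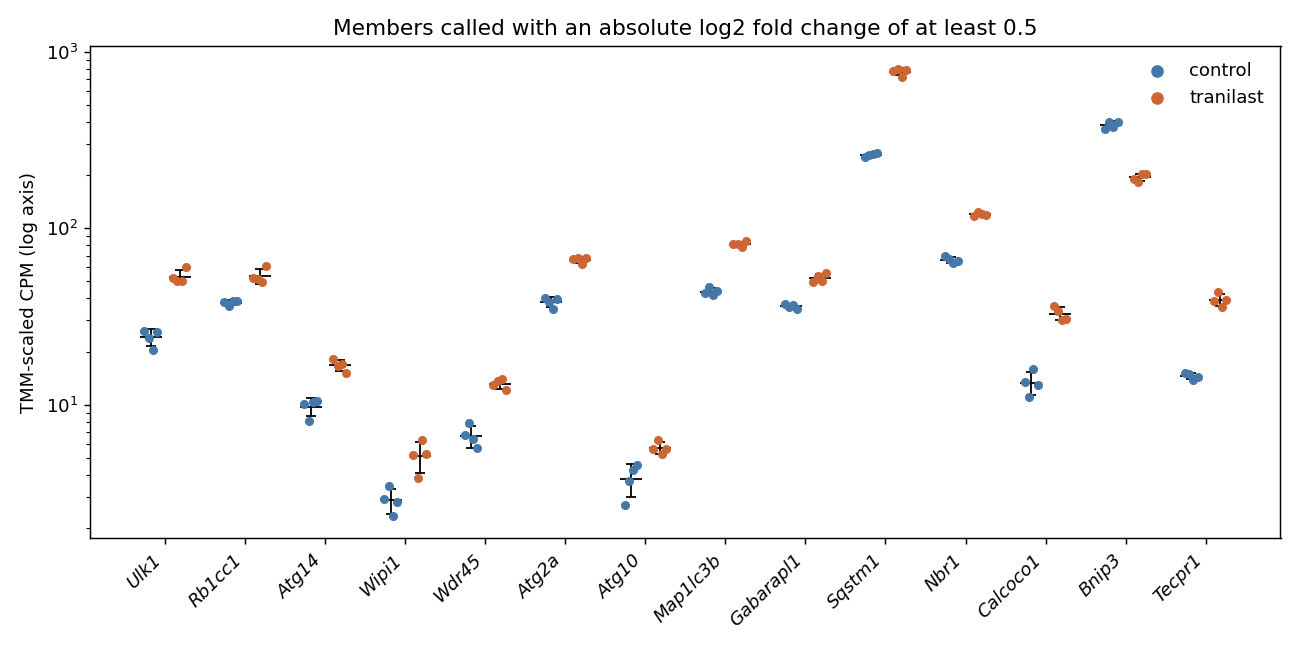
Points are the TMM-scaled CPM (log axis) of each of 4 control (blue) and 4 tranilast (orange) libraries for the 14 called members whose log2 fold change reached 0.5 in size, and black bars give the mean ± SD. The groups did not overlap in any of the 14, and Bnip3 is the gene in which the control libraries are the higher ones.

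By level per transcript length, Bnip3 led in the control libraries with 231 FPKM, followed by Sqstm1 with 121 and Gabarap with 116, and the ranges of Sqstm1 (117 to 124) and Gabarap (112 to 119.9) overlapped. Becn1 came next with 47.0 FPKM, above Tax1bp1 with 39.9 and Bnip3l with 35.3, and these neighbours did not overlap. In the tranilast libraries Sqstm1 led with 386 FPKM, ahead of Gabarap with 130.5 and Bnip3 with 125, and the ranges of the latter pair, 123 to 139 and 118 to 129, overlapped. Map1lc3b moved from rank 9 to rank 6, Nbr1 from rank 19 to rank 12 and Calcoco1 from rank 39 to rank 27. The 4 genes with the lowest FPKM of those tested, Tecpr1, Atg14, Atg10 and Wipi1, all had 2.74 FPKM or less in the control group. Between rank 10 and rank 28 in the control libraries each gene overlapped the next, so that the order of these genes was not resolved by 4 libraries. The same held between rank 7 and rank 9 and between rank 31 and rank 39. The control ranks of Map1lc3b, Nbr1 and Calcoco1 are therefore approximate.

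**Figure D4:**
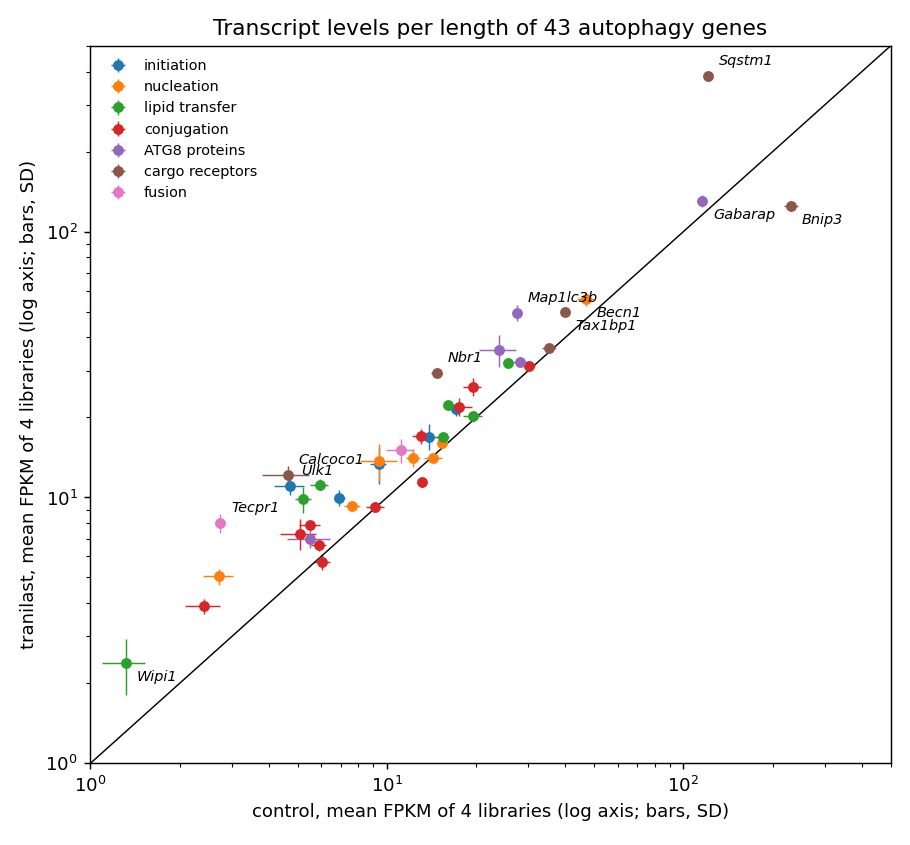
Mean FPKM of 4 tranilast libraries against mean FPKM of 4 control libraries (log axes, bars are SD) for the 43 tested members, colored by step, with the line of equal levels. Sqstm1 lies at 121 and 386 FPKM, Bnip3 lies below the line at 231 and 125 FPKM, and the points include the shift between groups that FPKM values share with library-size scaling.

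Together the 44 genes held 0.243% to 0.249% of all counts in control libraries, against 0.330% to 0.343% in tranilast libraries. Sqstm1 made up between 9.99% and 10.3% of the members' counts in the control group and between 22.7% and 24.4% in the tranilast group. Without Sqstm1 their share was 0.219% to 0.224% in control libraries, against 0.253% to 0.260% in tranilast libraries, and the groups remained apart. Shares of all counts are not TMM-scaled. They include the shift of all tested genes with library size alone, a median log2 fold change of 0.13.

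Promoters of 37 members were matched by symbol in the RefSeq table of GRCm38.p6, which gives 300 bases from 250 before to 50 after each start, and 44 windows were found. Their median GC content was 60.2%, against 61.0% for the 10999 windows of tested genes, and a ratio of observed to expected CpG above 0.6 was found in 35 of the 44 windows, or 79.5%, against 71.8%. On both strands, the GC box GGGCGG was present in 26 of the 37 members (70.3%) and in 70.2% of the tested genes with a window. The E-box core CACGTG was found in 6 members (16.2%), namely Atg14, Atg3, Atg5, Atg7, Bnip3 and Rubcn, against 12.2% of tested genes. Of these 6, Atg14, Atg5 and Rubcn were higher, Bnip3 was lower and Atg3 and Atg7 were not called. The matched windows of Atg7, Rubcn and Atg14 lay inside the annotated gene, downstream of its outermost start. The other window of Rubcn, at the outermost start, held no E-box core. The antioxidant response element TGACNNNGC was found in Atg13, Map1lc3b, Tax1bp1, Ulk2 and Vmp1 (13.5%), against 17.0% of tested genes. Neither the FoxO core GTAAACA nor the letters TGATGNAA of the ATF4 site occurred in a member's window, and they occurred in 3.01% and 2.79% of tested genes. The match of a motif describes the sequence only.

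A further 38 genes of selective autophagy, phagophore regulation and fusion were listed as the wider pathway, and 37 of them were tested. Of these, 18 were higher, 9 were lower and 10 were not called, with a median log2 fold change of 0.14. Among all tested genes 28.2% were higher and 28.8% lower, and the counts of each list below stand beside these same shares. Among 7 receptors for the endoplasmic reticulum, ferritin and aggregates, 4 were higher and 1 was lower, and Ccpg1, an ER-phagy receptor, had a log2 fold change of 0.71 (SE 0.059). Among the 7 mitophagy genes tested, 2 were higher and 2 were lower, and Pink1, the kinase that marks damaged mitochondria, had a log2 fold change of 0.62 (SE 0.084). The 13 fusion genes included 8 that were higher and 2 that were lower, with Plekhm1, an adaptor between LC3, RAB7 and the HOPS tether, at 0.75 (SE 0.036) and Tmem175, a lysosomal ion channel, at 0.67 (SE 0.082).

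Of 10 other phagophore regulators, 4 were higher and 4 were lower. Trp53inp1, a p53 target whose product binds ATG8 proteins, had 2.13, 2.15, 2.81 and 2.65 CPM in control replicates 1 to 4 and 77.4, 65.9, 70.7 and 77.7 CPM in the tranilast replicates, a log2 fold change of 4.90 (SE 0.095). It was listed with this value known. Trp53inp2, its paralog, which shuttles from the nucleus to autophagosomes, had a log2 fold change of 1.03 (SE 0.096), with 9.24 to 12.5 CPM in the control group and 21.3 to 23.2 CPM in the tranilast group. Rubcnl, which encodes the autophagy enhancer Pacer, was lower, with a log2 fold change of -0.73 (SE 0.12), 12.03 to 16.1 CPM in the control group and 7.31 to 9.27 CPM in the tranilast group.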

How the data were processed

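RNA-seq of 8 mouse samples labelled liver was analysed, 4 per group by sample title. The authors deposited for each gene an estimated count of reads, not scaled and whole in 92.7% to 93.9% of the values of a library, and an FPKM value, scaled for transcript length and depth. The methods describe poly-A TruSeq libraries on the HiSeq X-ten, and the labels name a NovaSeq instrument. The aligner, counter and build are not given in the sources used here, and 21973 of the 22063 identifiers were found in GENCODE M21 (GRCm38), which gave the coordinates. FPKM rests on the authors' transcript lengths, which may differ between libraries.

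Counts were rounded, filtered with filterByExpr by group, scaled by TMM and tested without covariates by the quasi-likelihood method of edgeR 4.0.16, with Benjamini-Hochberg adjustment over 10770 genes. A call is an adjusted p-value under 0.05. The methods name limma with no version, and limma 3.58.1 was run here as an alternative with voom. Single genes were compared by an exact permutation test of log2(CPM + 0.1). The code was tested on simulated data. A count of 0 allows up to 3 counts, or 0.192 to 0.249 CPM, for counting error only. R 4.3.3, DESeq2 1.42.0, Python 3.11.15 and pandas 2.3.3 were used.

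The members, the lists, the steps and the promoter motifs were chosen with earlier results of these data known. Every member is described. Called members whose log2 fold change reached 0.5 in size and the ATG8 genes are given in every library, and other pathway genes were named by the same threshold. Wdr45b, which did not reach it, was named beside the WIPI genes. The alternatives were RLE, upper-quartile and library-size scaling, DESeq2, limma-voom, limma on log2 FPKM with 1 or 0.1 added, a minimum of 10 counts per library, no filter, the replicate number as a block, a log2 fold change of 1.5 and each library left out. Reads shared by paralogs or by overlapping genes could not be told apart.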

Additional observations from a re-analysis of the deposited data

Results flagged for a closer look

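A single library stood apart from the other 3 of its group, by Dixon's 95% criterion, in 6 of the 86 groups of 4 that the 43 tested members give. Chance flags about 1 in 20 groups. In log2 CPM, Atg14 was at 3.04 in control replicate 2 against 3.35 to 3.40 in the other control libraries, and Pik3c3 at 5.29 in tranilast replicate 3 against 5.51 to 5.52. In tranilast replicate 2, Ambra1 was at 6.17 against 6.07 to 6.09 in the other tranilast libraries, Atg9a at 6.30 against 6.16 to 6.18 and Vmp1 at 6.35 against 6.44 to 6.45. Stx17 was at 5.52 in tranilast replicate 4 against 5.63 to 5.64. Pik3c3 had an adjusted p-value of 0.0486 in edgeR once tranilast replicate 3 was left out.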

How the results depend on the processing

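Of the 28 called members, 26 kept their call and direction under every alternative but the log2 fold change of 1.5, and Ambra1 and Atg4d did not. Both lost it with upper-quartile factors, library size alone and FPKM, and the cause was not tested. The log2 fold change stayed between 1.54 and 1.68 for Sqstm1 and between -1.01 and -0.87 for Bnip3. Upper-quartile factors, library size alone and log2 FPKM with 1 or 0.1 added moved the median of the members to 0.29, 0.34, 0.31 and 0.35, and each left 2 members lower. They moved the median of all genes to 0.076, 0.13, 0.10 and 0.12. In the same order they called 21.55%, 17.6%, 15.4% and 15.4% of all tested genes lower. With a log2 fold change of 1.5, 1 member was higher and 0 were lower, beside 120 of the 10770 tested genes in either direction. With each library left out, 24 to 26 members were higher and 2 to 4 lower, with 2 lower without tranilast replicate 1, and the median was 0.20 to 0.24. In those fits 25.7% to 26.85% of all tested genes were called higher and 26.45% to 27.8% lower.

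Of the 15 members that were not called, 1, Atg4c, kept both its direction and the lack of a call. Becn1, Pik3c3, Atg101, Atg4b, Atg7, Gabarap and Gabarapl2 were called higher under upper-quartile factors, library size alone and log2 FPKM, Map1lc3a under the last pair and Atg2b with library size alone. The others changed direction, as did Atg2b, with these values. Under upper-quartile factors, Atg9a was at 0.063, Bnip3l at 0.0034 and Uvrag at 0.012. With library size alone Atg3 was at 0.042, Atg4a at 0.0082, Atg9a at 0.11, Bnip3l at 0.053 and Uvrag at 0.062. On log2 FPKM with 1 or 0.1 added, Atg3 was at 0.042 and 0.043, Atg4a at 0.014 and 0.015, Atg9a at 0.051 and 0.053, Bnip3l at 0.053 and 0.054 and Uvrag at 0.060 and 0.064. Atg2b was at -0.00093 with RLE factors, -0.00079 in DESeq2 and -0.0021 without the filter. With each library left out, Atg2b lay between -0.010 and 0.014 and Atg9a between -0.038 and 0.034. Depth limited Optn.

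Replicate numbers did not pair the libraries, since the deviations of same-numbered libraries correlated at -0.057, -0.041, 0.0063 and 0.10 and not every library correlated best with its own number. With the replicate block 24 members were higher and 4 lower, beside 27.5% and 28.3% of all tested genes.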
